A study of Mus musculus with 4 samples.

Results

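The aminoacyl-tRNA synthetase genes described here are 36 rows of a count matrix of 20325 mouse gene symbols, 20 for the enzymes of the cytosol and 16 for those of mitochondria. Rows were matched by symbol, and the mitochondrial genes are those whose symbol ends in 2. All 36 passed the filter on low counts. RNA was sequenced from C3H10T1/2 cells, a multipotent mesenchymal line derived from C3H mouse embryos and used here at passages 10 to 15. Every culture stably expressed histone H3.3 carrying a FLAG-HA tag. In the K36M group (2 libraries) the tagged histone had methionine in place of lysine 36, a substitution known to inhibit the enzymes that methylate that residue, and in the WT group (2 libraries) it was wild type. The cells also keep their own H3.3 genes, and the labels do not name separate cultures or clones behind the 2 libraries of a group, so the p-values below measure the spread between libraries, which may be technical.

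Each synthetase joins 1 amino acid to its tRNAs, the step that sets the genetic code. Cytosolic translation and mitochondrial translation mostly use separate nuclear-encoded enzymes, although Gars and Kars each encode the enzyme of both compartments and mitochondria make glutaminyl-tRNA by amidating glutamyl-tRNA. Many cytosolic synthetase genes are known targets of ATF4, the transcription factor of the integrated stress response, which binds a composite site with a core of TGATGNAA.

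Promoter sequences show where that core lies in these genes. RefSeq promoters on build GRCm38.p6, from 250 bases before to 50 after the annotated start, could be matched for 27 of the 36 genes. The core was searched on both strands (TGATGNAA and its reverse TTNCATCA, which do not overlap in any window printed). It occurred for 5 of 13 cytosolic and 0 of 14 mitochondrial genes with a matched promoter, each gene counting once. Of all 32851 promoters of that length, counted singly, 3.97% held it. A match is a description of letters and not a bound site. The windows of 30 bases below, for the match nearest the start of each gene, run 5′ to 3′ along the gene and carry the matched bases in capitals, with positions counted from the annotated start (+1).
Aars, chr8:111033840-111033869, plus strand, match at 10 to 17: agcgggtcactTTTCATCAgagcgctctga
Gars, chr6:55037960-55037989, plus strand, match at -30 to -23: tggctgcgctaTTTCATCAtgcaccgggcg
Iars, chr13:49682126-49682155, plus strand, match at 8 to 15: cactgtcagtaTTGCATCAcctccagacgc
Tars, chr15:11399655-11399684, minus strand, match at -15 to -8: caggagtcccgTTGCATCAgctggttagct
Yars, chr4:129189895-129189924, plus strand, match at 4 to 11: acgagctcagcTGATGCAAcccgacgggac
In 4 of the 5 genes the core reads on the strand opposite to the gene, and in Yars it reads along it.

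Library totals were 56041798 and 34022137 expected counts in K36M and 25322433 and 23343297 in WT, so the K36M libraries were on average 1.85 times deeper. Levels are given as CPM, a unit scaled for depth, here after adjustment by trimmed mean of M values (TMM). All 9 mesenchymal markers were detected, and their summed level was 22936 and 21276 CPM in K36M libraries, against 25818 and 25421 CPM in WT libraries. Summed markers of other cell types were lower by far. Blood and macrophage markers (8 of 9 in the matrix, Hbb-b1 at 0) summed to 41.7 and 40.4 CPM in K36M, against 7.02 and 7.77 CPM in WT. Epithelial markers (6 of 6, Epcam at 0) summed to 24.3 and 25.8 CPM in K36M, against 12.1 and 11.0 CPM in WT. Endothelial markers (5 of 5) summed to 18.5 and 16.6 CPM in K36M and 39.6 and 38.1 CPM in WT, and neural markers (4 of 5, Olig2 at 0) to 26.0 and 25.4 CPM in K36M and 15.2 and 14.4 CPM in WT. A single gene made up most of the larger sum in each of these other lists. Hba-a1 had 26.7 and 25.3 CPM, Cdh1 22.3 and 24.1 CPM and Tubb3 25.6 and 24.7 CPM in K36M. Tek had 28.9 and 27.3 CPM in WT. Krt14 and Gfap were lower in K36M and Cdh5 was higher, against the direction of their sums. The mesenchymal markers were divided too, with 4 called higher, 4 lower and 1 not called. The part of all these markers in the results below was not tested.

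Cytosolic synthetase genes were mostly higher in K36M cells and mitochondrial ones were divided. Of the 20 cytosolic genes, 17 were called higher in K36M than in WT, 1 was called lower and 2 were not called, with a median log2 fold change of 0.44. Of the 16 mitochondrial genes, 5 were called higher, 5 lower and 6 not called, with a median of -0.004. Calls used edgeR's quasi-likelihood test with Benjamini-Hochberg adjustment over 13162 genes at an adjusted p under 0.05, and 38.5% of those genes were called higher and 37.1% lower, with a median log2 fold change of 0.003. The mitochondrial shares thus lay near or below the background, and 17 of 20 lay above it. At least 1.5-fold and called, 6 cytosolic genes were higher (18.7% of all genes were) and 1 mitochondrial gene, Lars2, was lower (15.3% of all genes were). In bulk RNA such as this, a change in the share of cells of a type and a change in RNA per cell cannot be told apart. Groups said below not to overlap hold 2 libraries each, which can separate by chance. The share of all genes with such separation is not given here.

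**Figure D1:**
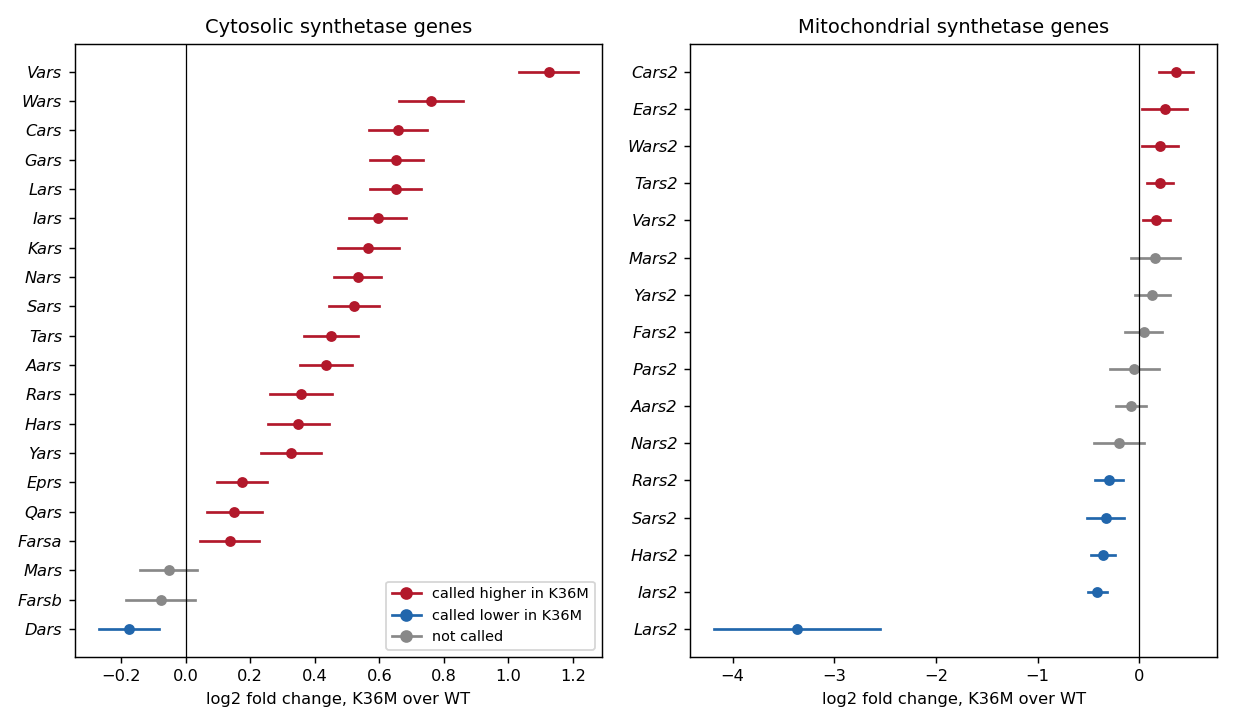
Log2 fold change, K36M over WT, of the 20 cytosolic (left) and 16 mitochondrial (right) synthetase genes; points are edgeR estimates from 2 libraries a group, lines are 95% intervals and colours mark the call. The 17 cytosolic genes called higher lie right of zero, with Vars farthest at 1.12, while mitochondrial genes lie on both sides and Lars2 stands alone at -3.37 on a wider axis.

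Summed over the cytosolic genes, the level was 4657 and 4569 CPM in K36M libraries, against 3410 and 3328 CPM in WT libraries. The K36M mean of 4613 ± 62.6 CPM was 1.37 times the WT mean of 3369 ± 57.8 CPM (SD, n = 2 each), and the groups did not overlap. The 15 mitochondrial genes other than Lars2 summed to 307 and 309 CPM in K36M, against 332 and 341 CPM in WT. That sum was 0.915 times the WT level, so the small mitochondrial total moved the other way. Most of this fall lay in Iars2, whose mean was 82.4 CPM in K36M and 109.4 CPM in WT. The median log2 fold change of the 15 genes was 0.04.

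The 6 cytosolic genes with the largest changes were all higher in K36M. Vars, the valyl-tRNA synthetase, had 350.7 and 324.2 CPM in K36M libraries, against 157.9 and 151.9 CPM in WT libraries. Its groups were far apart, a 2.18-fold difference (95% interval 2.05 to 2.32, edgeR adjusted p = 3.31e-14). Wars, the tryptophanyl-tRNA synthetase, which interferon-gamma induces in many cell types, had 133.6 and 131.2 CPM in K36M, against 74.7 and 81.7 CPM in WT. The groups did not overlap, and the 1.69-fold rise (1.58 to 1.82) had an edgeR adjusted p of 5.35e-11. Cars, for cysteine, had 128.7 and 131.3 CPM in K36M and 83.3 and 81.4 CPM in WT. It rose 1.58-fold (1.48 to 1.68, edgeR adjusted p = 1.08e-10), with replicates within 3 CPM of each other.

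Gars, for glycine, reached 295.0 and 288.7 CPM in K36M, against 189.6 and 181.6 CPM in WT. The difference was 1.57-fold (1.49 to 1.66, edgeR adjusted p = 2.2e-11), and every K36M library lay above every WT library. Lars, the leucyl-tRNA synthetase, also known as a leucine sensor upstream of mTORC1, had 242.0 and 240.0 CPM in K36M, against 151.9 and 155.1 CPM in WT. It too was 1.57-fold higher (1.49 to 1.66, edgeR adjusted p = 1.91e-11). Iars, for isoleucine, had 316.1 and 313.0 CPM in K36M, against 217.2 and 199.3 CPM in WT, a rise of 1.51-fold (1.42 to 1.60, edgeR adjusted p = 2.79e-10). A processed pseudogene, Gm4849, has 96.0% identity to 1656 bases of an Iars transcript and no row in the matrix, so reads of the pair may have been split or merged in counting.

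**Figure D2:**
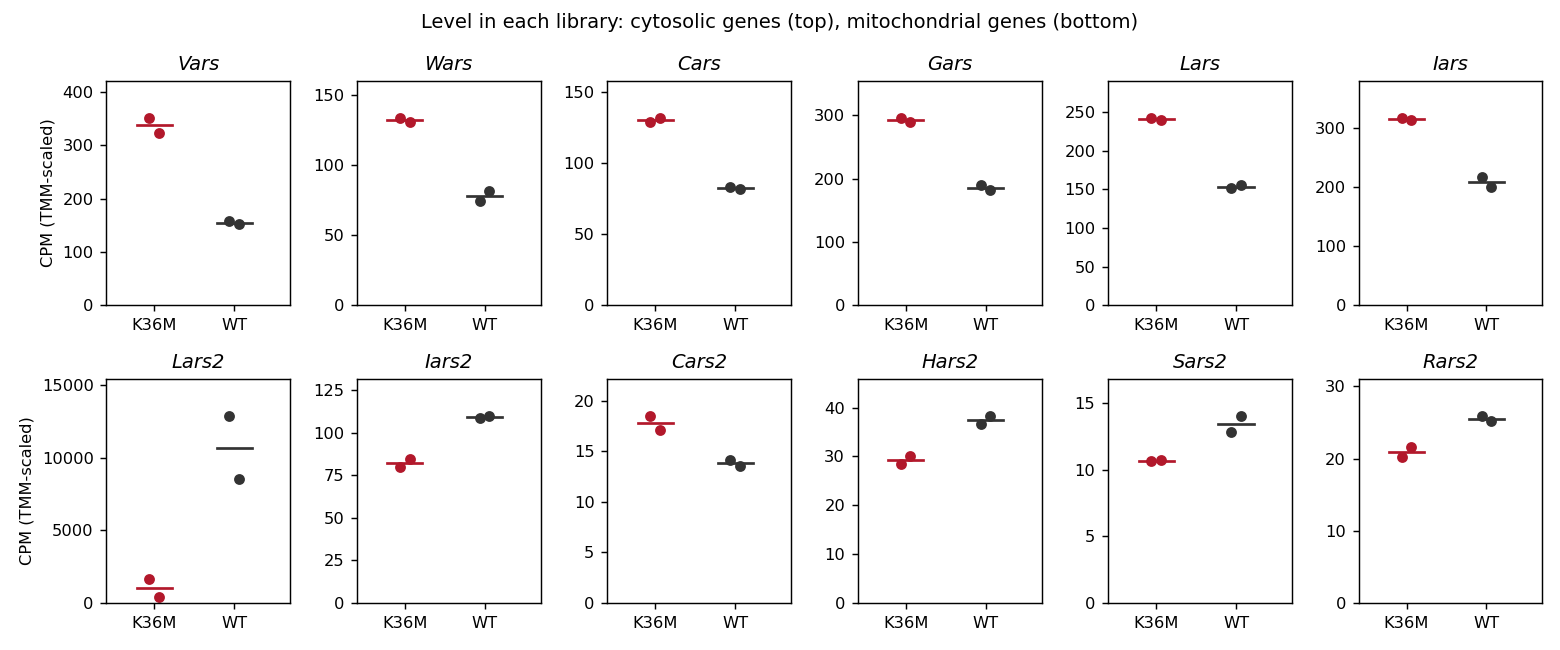
Level in each library (points, CPM after TMM scaling) and group mean (line) of the 6 cytosolic genes (top) and 6 mitochondrial genes (bottom) with the largest changes, K36M left of WT, each axis from 0. Replicates lie close together in every panel except Lars2, where the K36M libraries stood at 1671 and 394.5 CPM and the WT libraries at 12860 and 8506 CPM.

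Smaller rises followed in 8 further cytosolic genes, each between 1.25-fold and 1.48-fold and each with non-overlapping groups. Their log2 fold changes were 0.57 for Kars (lysine), 0.53 for Nars (asparagine), 0.52 for Sars (serine), 0.45 for Tars (threonine), 0.44 for Aars (alanine), 0.36 for Rars (arginine), 0.35 for Hars (histidine) and 0.33 for Yars (tyrosine). The largest edgeR adjusted p among them was 2.27e-06, for Yars. Eprs, which in animals joins the glutamyl and prolyl enzymes in 1 protein, was 1.13-fold higher (1.07 to 1.19, edgeR adjusted p = 0.000327). Several of these genes share exon bases with a neighbour, and the labels and file headers do not say whether reads were counted by strand. Aars shares 1326 bases with Exosc6 on the same strand (log2 fold change of Exosc6 0.60), Hars shares 195 bases with Hars2 on the opposite strand, and Yars shares 30 with C77080 (log2 fold change 1.25), so their counts are less certain.

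At the bottom of the cytosolic order the changes were small. Qars, for glutamine, had 141.0 and 143.3 CPM in K36M, against 129.2 and 126.8 CPM in WT. This 1.11-fold rise (edgeR adjusted p = 0.00271) was no longer called without WT replicate 2 (adjusted p = 0.0758). Farsa and Farsb encode the alpha and beta chains of the phenylalanyl enzyme, a tetramer with an equal number of each. Farsa had 98.7 and 97.2 CPM in K36M, against 90.1 and 88.2 CPM in WT (1.10-fold, edgeR adjusted p = 0.00892), and its call was lost without WT replicate 2 (adjusted p = 0.14). Farsb had 58.7 and 63.9 CPM in K36M, against 65.4 and 63.4 CPM in WT. Its groups overlapped and it was not called (95% interval of the log2 fold change -0.18 to 0.03, edgeR adjusted p = 0.18), although it was called lower without K36M replicate 2 (adjusted p = 0.0104). Farsb shares 248 exon bases with Sgpp2 on the opposite strand, which had a log2 fold change of -1.62.

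Mars, for methionine, also supplies the initiator tRNA, and it was not called. It had 128.2 and 124.3 CPM in K36M, against 133.6 and 128.5 CPM in WT, with an interval of the log2 fold change from -0.14 to 0.04 (edgeR adjusted p = 0.268). The groups lay next to each other without overlap. Its 3′ end shares 68 bases with Ddit3, a stress response gene on the opposite strand with a log2 fold change of 0.84. Dars, for aspartate, was the 1 cytosolic gene called lower, with 105.9 and 110.1 CPM in K36M, against 125.4 and 118.2 CPM in WT. Its level was 0.886 times that of WT (0.830 to 0.945, edgeR adjusted p = 0.00173), and the call was lost without WT replicate 1 (adjusted p = 0.0649).

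Of the cytosolic enzymes, 8 sit with 3 scaffold proteins in the multisynthetase complex. Among these 8 genes 6 were called higher (Iars, Lars, Kars, Rars, Eprs and Qars), 1 lower (Dars) and 1 was not called (Mars), with a median log2 fold change of 0.27. Of the 12 genes outside the complex 11 were called higher and 1, Farsb, was not called, with a median of 0.49. For comparison, 38.5% of all tested genes were called higher and 37.1% lower. The difference between the 2 medians was not tested. All 3 scaffold genes were higher in K36M. Eef1e1, also called AIMP3, had 27.7 and 28.5 CPM in K36M, against 17.3 and 16.7 CPM in WT (log2 fold change 0.72, edgeR adjusted p = 1.24e-08). Aimp2 had 41.6 and 39.4 CPM in K36M, against 28.4 and 25.3 CPM in WT (0.59, edgeR adjusted p = 4.85e-08). Aimp1, the precursor of a secreted cytokine, had 63.8 and 64.8 CPM in K36M, against 58.0 and 57.6 CPM in WT (0.15, edgeR adjusted p = 0.00626). In none of the 3 did the groups overlap.

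Lars2, the mitochondrial leucyl-tRNA synthetase, was by far the most changed member and also the least reproducible. It had 1671 and 394.5 CPM in K36M libraries, against 12860 and 8506 CPM in WT libraries. That was 0.17% and 0.04% of all counts in K36M and 1.26% and 0.84% in WT. Iars2, the next highest mitochondrial member, had 109.0 and 109.9 CPM in WT, so the level of Lars2 was out of line with the other members. All K36M values lay below all WT values, with means of 1033 ± 903 CPM in K36M and 10683 ± 3079 CPM in WT (SD, n = 2 each). The log2 fold change was -3.37 (SE 0.39, 95% interval -4.18 to -2.56, edgeR adjusted p = 2.83e-07). That SE borrows from the spread of all genes. From the 4 Lars2 values alone, the mean log2 CPM was 9.67 in K36M and 13.35 in WT, a difference of -3.69 with an SE of 1.08, and a two-sided exact permutation test gave p = 0.333, the smallest p that 2 libraries against 2 allow. Lars2 was the 1 member among the 594 genes of the authors' deposited table, where its ratio of K36M over WT is 0.0908. The size depends on single libraries: it was -4.76 without K36M replicate 1, -2.67 without K36M replicate 2, -3.04 without WT replicate 1 and -3.64 without WT replicate 2, called each time.

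The K36M replicates differed 4.24-fold in Lars2 and the WT replicates 1.51-fold, while the largest replicate ratio of any other member in either group was 1.19. Among the 2249 tested genes with a mean of at least 100 CPM, Lars2 alone had K36M replicates that far apart, and 3 genes, Lars2 included, had WT replicates as far apart as its own. The main Lars2 transcript of GENCODE M21 holds 3894 bases, with its 3′ untranslated region from base 2906. Bases 3278 to 3349 of it have 98.6% identity to Gm15564, and bases 3163 to 3212 have 96.0% identity to AA474408, both outside the Lars2 locus and without a row in the matrix. How many of the Lars2 counts came from such stretches was not tested. Genes for ribosomal and other abundant noncoding RNA had no row under the symbols sought, so they could not be set beside Lars2.

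**Figure D3:**
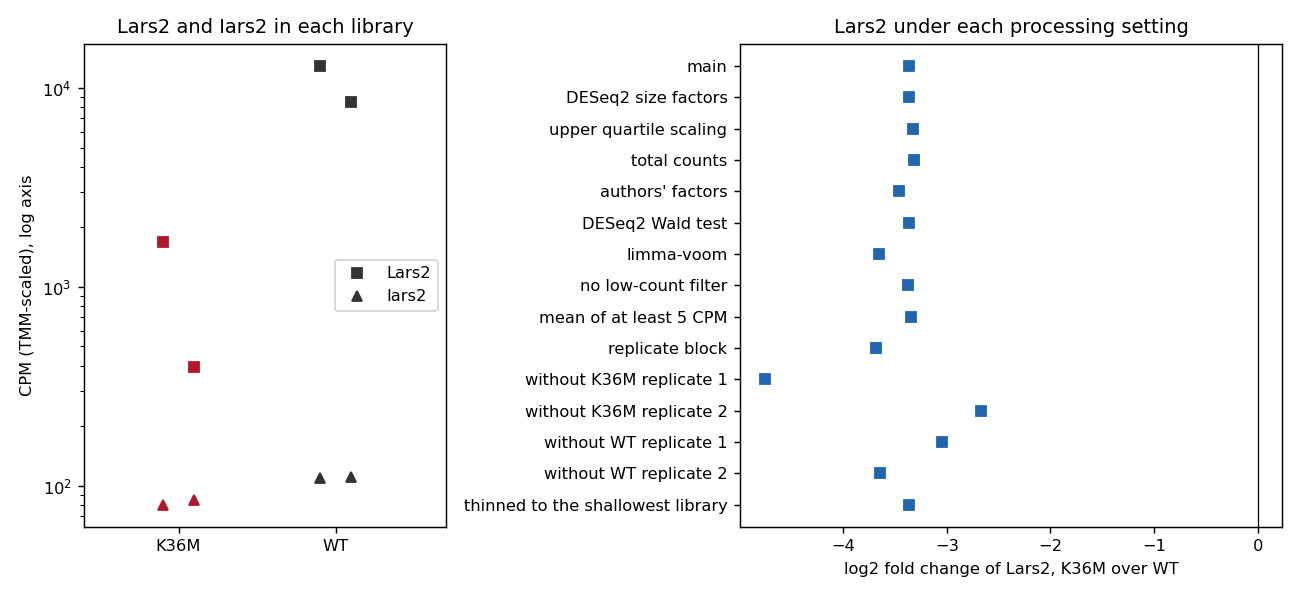
Left, level of Lars2 (squares) and Iars2 (triangles) in each library on a log axis, K36M left of WT; right, log2 fold change of Lars2 under the main setting and 14 alternatives. The Iars2 replicates nearly coincide while those of Lars2 spread, and the Lars2 estimate stays below zero between -4.76 and -2.67.

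Without Lars2, 5 mitochondrial genes were called higher, 4 lower and 6 were not called, with a median log2 fold change of 0.04 and a range from -0.41 to 0.36. The 4 other genes called lower kept that call under all 14 alternatives. Iars2, for isoleucine, had 79.9 and 84.8 CPM in K36M, against 109.0 and 109.9 CPM in WT. It was 0.751 times the WT level (0.703 to 0.803, edgeR adjusted p = 1.57e-07), with no overlap, but 2034 of its exon bases lie opposite Rab3gap2, which had a log2 fold change of -0.08 and was not called. Hars2, for histidine, had 28.5 and 30.1 CPM in K36M, against 36.6 and 38.3 CPM in WT (0.780 times, edgeR adjusted p = 1.11e-05). Sars2, for serine, had 10.6 and 10.7 CPM in K36M, against 12.9 and 14.0 CPM in WT (0.795 times, edgeR adjusted p = 0.00214). Rars2, for arginine, had 20.2 and 21.6 CPM in K36M, against 25.9 and 25.2 CPM in WT (0.815 times, edgeR adjusted p = 0.000534). In these 3 genes too the groups stood apart.

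Cars2, for cysteine, was the mitochondrial gene with the largest rise, at 18.5 and 17.1 CPM in K36M, against 14.2 and 13.6 CPM in WT. It was 1.29-fold higher (1.15 to 1.45, edgeR adjusted p = 0.000471) and stayed called under all 14 alternatives. Cars2 shares 422 exon bases with Naxd on the opposite strand, a gene without a row by that symbol, so its count is less certain. Shared exon bases were found for 13 of the 36 members, among them Vars2 (465) and Ears2 (89). Under the alternatives the other 4 calls were not as firm. Ears2, which charges mitochondrial glutamate and glutamine tRNAs with glutamate, had 7.32 and 7.38 CPM in K36M, against 6.50 and 5.87 CPM in WT (1.19-fold, edgeR adjusted p = 0.0412). Its call was lost under 7 of the 14 alternatives, among them leaving out K36M replicate 1 (adjusted p = 0.0782), K36M replicate 2 (0.0655) or WT replicate 2 (0.267). Wars2, for tryptophan, had 18.2 and 17.9 CPM in K36M, against 14.3 and 17.1 CPM in WT (1.15-fold, edgeR adjusted p = 0.0353). Its call was lost under 5 of the 14 alternatives. Among them were leaving out K36M replicate 1 or WT replicate 1, the library that held the low value. The authors' scaling factors (edgeR adjusted p = 0.21) and DESeq2's Wald test (adjusted p = 0.157) were others.

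Tars2, for threonine, had 26.8 and 26.0 CPM in K36M, against 22.9 and 23.2 CPM in WT (1.15-fold, edgeR adjusted p = 0.00708). Its call was lost under 3 of the 14 alternatives. They were leaving out WT replicate 1, the authors' factors (edgeR adjusted p = 0.11) and DESeq2's Wald test (adjusted p = 0.078). Vars2, for valine, had 29.8 and 27.7 CPM in K36M, against 24.9 and 26.7 CPM in WT (1.12-fold, edgeR adjusted p = 0.0236). The call of Vars2 was lost under 4 of the 14 alternatives. They were leaving out K36M replicate 1 or WT replicate 1, the authors' factors (edgeR adjusted p = 0.263) and DESeq2's Wald test (adjusted p = 0.149). All 5 genes called higher had K36M libraries above both WT libraries, by small margins.

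The 6 mitochondrial genes that were not called had levels between 5 and 21 CPM, where the test resolves less. Mars2 (methionine) had 5.79 and 6.39 CPM in K36M, against 5.33 and 5.52 CPM in WT, with an interval of the log2 fold change of -0.08 to 0.40. Yars2 (tyrosine) had 16.7 and 15.5 CPM in K36M, against 14.3 and 15.4 CPM in WT, with an interval of -0.04 to 0.30. In both, the K36M libraries lay just above the WT libraries. Fars2, the mitochondrial phenylalanyl enzyme, a single chain, had 13.9 and 12.5 CPM in K36M, against 12.6 and 13.2 CPM in WT (-0.14 to 0.23). Pars2 (proline) had 5.25 and 5.73 CPM in K36M, against 5.81 and 5.47 CPM in WT (-0.29 to 0.19). The groups of both genes overlapped. Aars2 (alanine) had 19.6 and 19.0 CPM in K36M, against 20.9 and 20.1 CPM in WT (-0.23 to 0.06). Nars2 (asparagine) had 5.76 and 6.73 CPM in K36M, against 6.50 and 7.74 CPM in WT (-0.45 to 0.05), and it was called lower without K36M replicate 2 (edgeR adjusted p = 0.0263) or without WT replicate 1 (0.0429). The groups of Nars2 overlapped and those of Aars2 did not.

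Set side by side, 13 amino acids have 1 cytosolic and 1 mitochondrial gene among the members. In 12 of these 13 pairs the log2 fold change of the cytosolic gene exceeded that of the mitochondrial gene, with a median difference of 0.65 (range -0.21 to 4.02). The upper end is that of leucine, where the origin of the Lars2 counts was not tested. In 5 pairs (histidine, isoleucine, leucine, arginine and serine) the cytosolic gene was called higher and the mitochondrial gene lower. In 4 pairs (cysteine, threonine, valine and tryptophan) both were called higher. In 3 pairs (alanine, asparagine and tyrosine) the cytosolic gene alone was called higher, and for methionine neither gene was called. The widest gap apart from leucine was that of Iars (0.59) and Iars2 (-0.41), followed by Vars (1.12) and Vars2 (0.16). These differences between genes were not tested, and the mitochondrial genes had fewer counts. Over all tested genes 38.5% were called higher and 37.1% lower. With 17 of 20 cytosolic genes called higher, the counts of pairs partly follow from the totals of each compartment.

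**Figure D4:**
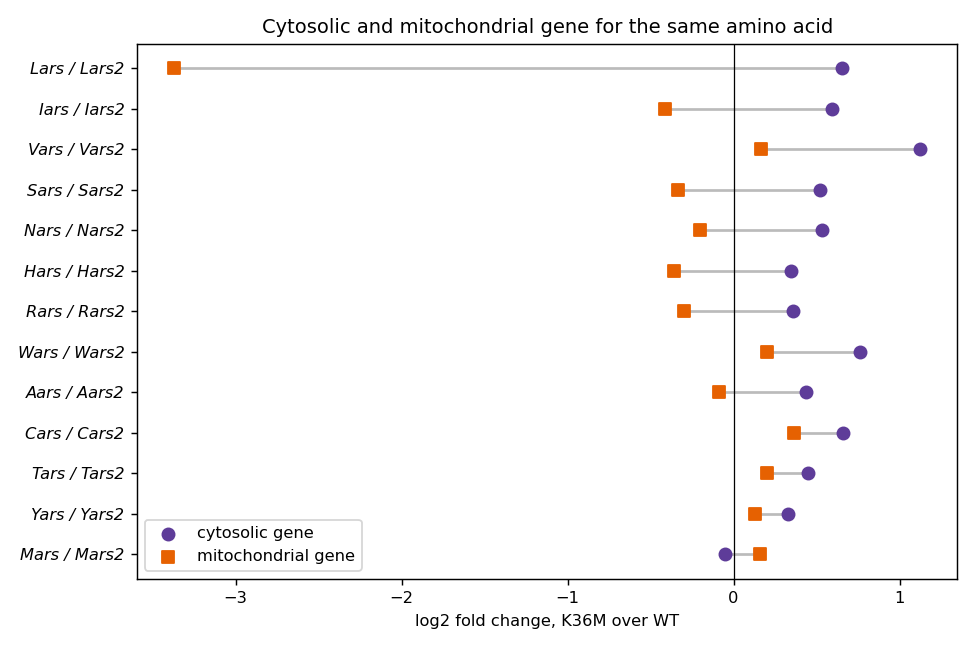
Log2 fold change, K36M over WT, of the cytosolic (circle) and mitochondrial (square) gene for each of 13 amino acids, ordered by the difference between them. The circle lies right of the square in 12 pairs; for methionine the order is turned, at -0.05 for Mars and 0.16 for Mars2.

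The genes that work with the mitochondrial enzymes did not share 1 direction. The amidotransferase that turns glutamyl-tRNA into glutaminyl-tRNA and the formyltransferase for initiator methionine were represented by 4 tested genes. Of these, Pet112l, an older symbol for the GatB subunit, was called lower, with 6.66 and 7.28 CPM in K36M, against 13.0 and 12.8 CPM in WT (log2 fold change -0.90, edgeR adjusted p = 7.48e-08). Qrsl1, Gatc and Mtfmt were not called. Among 9 mitochondrial translation factors 4 were called higher and 4 lower, not far from the shares of all tested genes (38.5% and 37.1%). The elongation factors Tufm (0.34) and Tsfm (0.30) and the recycling factor Mrrf (0.29) were higher in K36M, and the release factor Mtrf1 (-0.40) was lower. The 4 genes of the selenocysteine route, which builds selenocysteine on a tRNA first charged with serine, were all not called, with log2 fold changes from -0.06 to 0.16.

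Editing genes, which clear wrongly charged tRNAs, were divided. Aarsd1, which acts on serine misjoined to alanine tRNA, was called higher (log2 fold change 0.23, edgeR adjusted p = 0.00099). Prorsd1, which acts on alanine misjoined to proline tRNA, was called lower, with 7.93 and 8.28 CPM in K36M, against 11.1 and 11.0 CPM in WT (-0.45, edgeR adjusted p = 0.000245). Dtd1, the deacylase for D-amino acids on tRNA, had 8.80 and 9.35 CPM in K36M, against 13.6 and 13.1 CPM in WT (-0.56, edgeR adjusted p = 1.53e-05). In the 2 lower genes the groups stood well apart.

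Genes of the integrated stress response were mostly higher in K36M, as the cytosolic synthetases were. Of 23 such genes 18 were called higher, 3 lower and 2 were not called, with a median log2 fold change of 0.50, and 11 were at least 1.5-fold higher. Over all tested genes 38.5% were called higher, 37.1% lower and 18.7% at least 1.5-fold higher. Nupr1, a stress-induced chromatin protein, had 196.8 and 208.8 CPM in K36M, against 53.0 and 51.3 CPM in WT (log2 fold change 1.96, edgeR adjusted p = 2.88e-17). Psat1, of serine synthesis, had 630.1 and 622.5 CPM in K36M, against 252.3 and 222.9 CPM in WT (1.40, edgeR adjusted p = 3.17e-15). Slc7a5, a chain of the transporter for leucine and other large amino acids, had 404.2 and 371.9 CPM in K36M, against 174.6 and 174.5 CPM in WT (1.15, edgeR adjusted p = 1.63e-14). Chac1, which degrades glutathione, had 40.4 and 38.7 CPM in K36M, against 20.5 and 20.3 CPM in WT (0.96, edgeR adjusted p = 2.93e-11). In these 4 genes K36M libraries were far above WT libraries. Atf4, chosen here after its value was seen, was 0.31 higher on the log2 scale (edgeR adjusted p = 3.86e-07), although ATF4 protein is known to be set mainly by translation.

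Of the 13 synthetase genes often reported as induced by ATF4, 12 were called higher and Mars was not called, with a median log2 fold change of 0.53. Of the other 7 cytosolic genes (Dars, Farsa, Farsb, Hars, Kars, Qars and Rars) 5 were called higher, 1 lower and 1 was not called, with a median of 0.15. The share called higher over all tested genes was 38.5%. The 5 genes whose promoter windows are printed above were all called higher, with a median of 0.45. The 8 cytosolic promoters without the core belonged to genes with a median of 0.14, of which 5 were called higher. Cars, Hars, Lars, Nars, Rars, Vars and Wars had no matched promoter and are in neither median. All of them were called higher, and Vars had the largest rise of any member (1.12). In the stress response list 7 of 22 genes with a matched promoter held the core there. None of these differences was tested.

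For Wars, genes of the interferon-gamma response were read beside it. Of 11 tested genes 6 were called higher, 3 lower and 2 were not called, where 38.5% of all genes were called higher and 37.1% lower. The immunoproteasome genes Psmb8 and Psmb9 were higher in K36M, with log2 fold changes of 2.35 and 2.28 at levels of at most 5.87 CPM, and so was the GTPase gene Gbp2 (1.24). Ifit3, an antiviral gene, was lower, with 8.94 and 10.5 CPM in K36M, against 29.2 and 31.2 CPM in WT (-1.65, edgeR adjusted p = 1.87e-12). The list thus held called genes on both sides beside the rise of Wars.

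**Figure D5:**
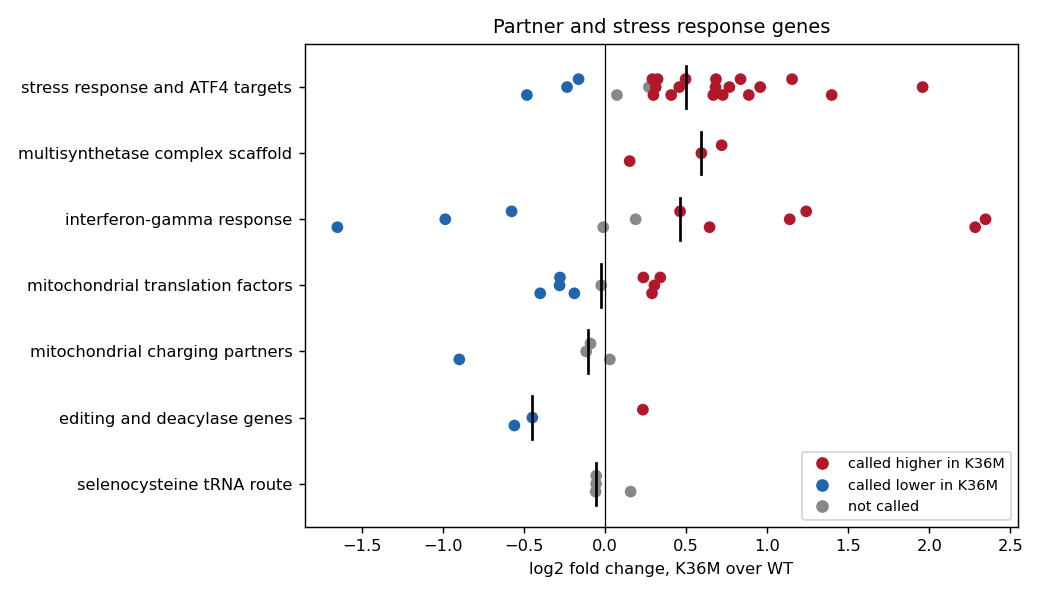
Log2 fold change, K36M over WT, of each tested gene (points, coloured by call) in 7 lists read beside the synthetases, with the list median as a black line. Most stress response genes and all 3 scaffold genes lie right of zero, while mitochondrial translation factors and interferon-gamma response genes lie on both sides.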

How the data were processed

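Expression was measured by RNA sequencing in 4 libraries, 2 of K36M and 2 of WT cells, grouped by their titles. Per the file headers, the deposited matrix holds raw RSEM expected counts, which can hold fractions of a read; per the submitters' processing notes, Bowtie 1.0.0, RSEM 1.2.12 and build mm9 were used. A second deposited table gives the authors' log2 values and fold ratios for 594 genes. Rounded to whole numbers, the expected counts entered edgeR 4.0.16 under R 4.3.3 (filterByExpr, TMM, quasi-likelihood test of K36M against WT, 2 residual and 15.7 prior degrees of freedom, Benjamini-Hochberg adjustment over 13162 genes, adjusted p under 0.05). SE and 95% intervals come from the F statistic. Libraries of a group varied by 3.33% beyond counting error (common biological coefficient of variation). Reads were counted without molecular identifiers, and a floor of 3 counts is 0.0528 and 0.0863 CPM in K36M and 0.121 and 0.13 CPM in WT libraries, covering counting error only. The fewest counts of any member in a library were 126.

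On simulated counts of 13162 genes the test recovered 78% of genes changed 1.25-fold and 100% of those changed 1.5-fold or more, with 11 false among 200 calls. There 50 genes were changed at each fold, far fewer than were called in these data. Genes with low expected counts were left out of the changed set, and all genes shared 1 spread. The rates may therefore not hold for genes with a wider spread, such as Lars2. Alternatives were 4 other scalings, DESeq2 1.42.0, limma-voom (limma 3.58.1), 2 filters, thinning, a replicate block and leaving out each library. Near-identical transcripts were sought with blastn 2.17.0 in GENCODE M21 (at least 95% identity over at least 50 bases). The members and gene lists were chosen with earlier results of these data known. Levels are given per library for the 6 cytosolic and 6 mitochondrial members with the largest changes and for members not called or whose call changes under an alternative; from other lists at most 4 called genes with the largest changes are named, and every scaffold gene. A further promoter window is not reported here, no sequence is printed for genes on chromosome 18, and mitochondrial-encoded genes were not analysed here.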

Additional observations from a re-analysis of the deposited data

How the results depend on the processing

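With the main setting 17 cytosolic genes were called higher and 1 lower, and 5 mitochondrial genes higher and 5 lower. Leaving out each library gave 15 to 17 and 0 to 2 cytosolic genes, 2 to 4 and 5 to 6 mitochondrial genes, a cytosolic median log2 fold change of 0.41 to 0.48 and a mitochondrial median of -0.0069 to 0.018. With the factors the authors used, which shift the median of all genes to -0.083, 15 cytosolic genes were higher and 3 lower, and 1 mitochondrial gene was higher and 7 lower, with medians of 0.36 and -0.090. DESeq2's Wald test called 1 mitochondrial gene higher, and thinning to the shallowest library 3. Upper quartile scaling gave medians of 0.48 (cytosolic) and 0.037 (mitochondrial), and total counts 0.49 and 0.046. The mean in place of the median was 0.41 and -0.22, and the mitochondrial median without Lars2 was 0.043. The causes were not tested. Direction turned only in uncalled genes: Fars2 (-0.043 with the authors' factors, and -0.036 to 0.11 when each library was left out) and Pars2 (-0.10 to 0.023 when each library was left out). Farsb, Aars2, Mars and Nars2 became calls, all lower, with the authors' factors. With those factors 6 genes called higher in the main setting lost their call: Qars, Farsa, Ears2, Wars2, Tars2 and Vars2.

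Replicate differences were not shared between the groups: over 13162 genes the correlation of the difference between replicates 1 and 2 in K36M with that in WT was 0.00263. The labels do not say whether libraries with the same number were prepared together. A fit with the replicate number as a block gave the same counts, 17 and 1 cytosolic and 5 and 5 mitochondrial genes, and changed no member's call. With 2 libraries a group, leaving 1 out assumes that the lone library varies like the other group. Mitochondrial members, with a median count of 355 to 1043 per library, limit the precision of the small changes.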
